A study of Zea mays with 4 samples.

Results

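The 7 lignin genes described here were followed in the RNA-seq data of the Puma maize hybrid, and they are 7 of the 39179 genes in the FPKM table (fragments per kilobase of gene, scaled to the total fragments of the library). They were taken by identifier and not by a threshold on their values, but they were chosen with earlier results of these data known. They are PAL (Zm00001d017274), 4CL (Zm00001d015459), ccoaomt1 (Zm00001d045206), ccr1 (Zm00001d032152), bm1 (Zm00001d015618), bm2 (Zm00001d034602) and bm3 (Zm00001d049541). RNA came from the female inflorescence (FI), bagged before its silks emerged and not pollinated, and from the uppermost stem internode (TI). All plants were of the same hybrid, grown in a greenhouse and collected at 60 DAS (days after sowing, stage R1). There are 2 libraries per tissue, which the methods describe as biological replicates, and how many plants went into a library is not given in the sources used here. No cell type was isolated from either tissue, and reads of the hybrid were aligned to the B73 inbred genome.

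Lignin is the phenolic polymer that stiffens the walls of xylem vessels and fibres, and in grasses it accumulates strongly in the rind and vascular bundles of the stem. Its building blocks, the monolignols, are made from phenylalanine. PAL opens the route, 4CL activates the phenolic acids as CoA esters, O-methyltransferases add methyl groups to the ring, and cinnamoyl-CoA reductase and cinnamyl alcohol dehydrogenase reduce the side chain to the alcohol. Maize brown midrib (bm) mutants have coloured leaf midribs and altered lignin, and are known for forage that is easier to digest.

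The count table held between 1455729 and 2431447 counts per library, and the fragments recovered from FPKM added up to between 2373386 and 3876892. TI replicate 2 stood apart from TI replicate 1. Of 20 genes fixed as inflorescence and floral markers and found in the count table, 15 lay higher in CPM (counts scaled to the library total) in each FI library than in either TI library, as did 30.0% of the 15479 gene models tested on counts. The meristem gene kn1 was the 1 marker the other way, at 8.23 and 5.79 CPM in FI libraries and 24.2 and 14.4 in TI libraries. The summed level of all 20 was 1352 and 1136 CPM in the FI libraries, while TI replicates 1 and 2 had 98.5 and 604. The floral MADS-box genes zag3, zag5 and zmm27 were at 0 counts in TI replicate 1 and at 48, 26 and 111 counts in TI replicate 2. The internode libraries are therefore kept apart for every gene.

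FPKM of 6 of the 7 genes was higher in each TI library than in either FI library, and bm2 was the exception, with both FI libraries above both TI libraries. The 6 genes were PAL, 4CL, ccoaomt1, ccr1, bm1 and bm3. Of all 19531 genes whose mean FPKM was at least 1, 27.5% had both TI libraries above both FI libraries and 33.0% the reverse. All 7 genes passed this filter. In these bulk samples, a different number of cells that make lignin and a different RNA level per cell cannot be told apart. Summed over the 6 genes, FPKM was 447 and 383 in the FI libraries and 890 and 805 in the TI libraries.

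**Figure D1:**
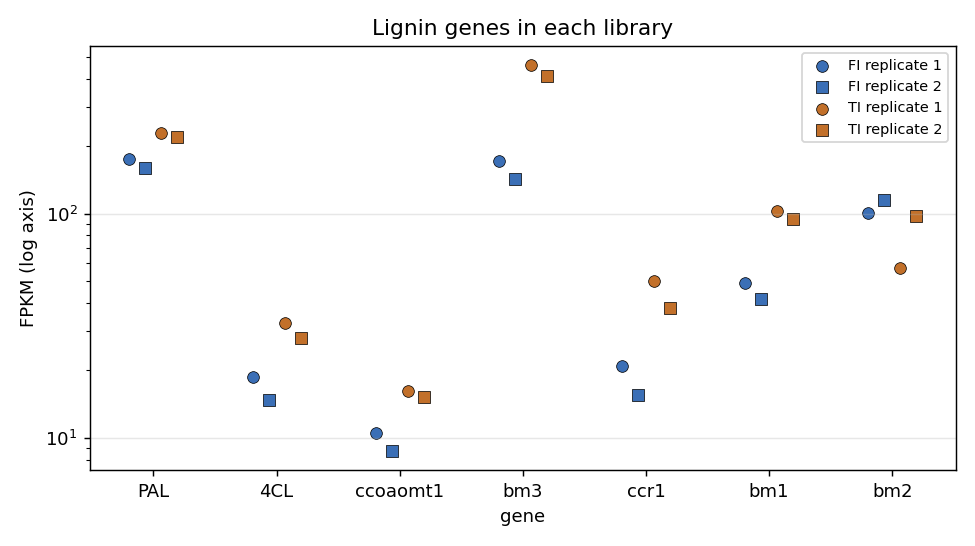
FPKM on a log axis of the 7 lignin genes, with 1 point for each of the 4 libraries (circles replicate 1, squares replicate 2, blue FI, orange TI). For bm3 the TI points lie at 458 and 411 and the FI points at 172 and 142, while bm2 has its lowest point, 57.2, in TI replicate 1.

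PAL, which removes the amino group of phenylalanine and so commits it to phenolic compounds, had FPKM values of 176 and 160 in the FI libraries, against 230 and 219 in the TI libraries. The tissues did not overlap, but their means, 168 ± 11.1 (SD, n = 2) and 224 ± 7.60, differed by only 1.33-fold, the smallest ratio among the 6 genes that were higher in TI. The log2FC, the log2 of FI over TI on the log2(FPKM + 1) scale, is negative where TI is higher. For PAL it was −0.42 (standard error, SE, 0.20), with an FDR (p adjusted by Benjamini-Hochberg over all genes) of 0.314 in limma. Maize has several PAL genes with similar sequences, and how reads that fit more than one of them were assigned is not given in the sources used here.

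4CL joins coenzyme A to coumaric and related acids. Its FPKM was 18.8 and 14.8 in the FI libraries, against 32.6 and 28.0 in the TI libraries, with means of 16.8 ± 2.81 and 30.3 ± 3.24 (SD, n = 2). Both TI libraries lay above FI by 9.27 FPKM or more, and the log2FC was −0.82 (SE 0.24, limma FDR 0.258).

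The gene ccoaomt1 encodes caffeoyl-CoA O-methyltransferase, which makes feruloyl-CoA, and it had the lowest level of the 7 genes in each library. FPKM was 10.6 and 8.76 in the FI libraries, against 16.2 and 15.2 in the TI libraries. The tissues did not overlap. Its means were 9.67 ± 1.29 and 15.7 ± 0.709 (SD, n = 2), with a log2FC of −0.65 (SE 0.21, limma FDR 0.271).

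The other O-methyltransferase, bm3, acts on caffeic acid and on related aldehydes and is needed for syringyl units of lignin. FPKM of bm3 was 172 and 142 in the FI libraries, and TI replicates 1 and 2 had 458 and 411. Both TI values lay far above both FI values. This was the largest ratio between the tissues among the 7 genes, 2.77-fold, with means of 157 ± 21.1 in FI and 435 ± 33.8 in TI (SD, n = 2). The log2FC was −1.47 (SE 0.22, limma FDR 0.215). In TI replicate 1 bm3 ranked 40 and in TI replicate 2 it ranked 27 of all 39179 genes by FPKM, against ranks of 186 and 204 in FI.

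Next in the route, ccr1 encodes cinnamoyl-CoA reductase, which turns the CoA esters into aldehydes. It had FPKM values of 21.0 and 15.6 in the FI libraries, against 49.9 and 38.0 in the TI libraries. Replicate 1 was the higher library in each tissue, and the tissues did not overlap. The ratio of the means, 18.3 ± 3.86 and 44.0 ± 8.37 (SD, n = 2), was 2.40-fold, and the log2FC was −1.22 (SE 0.27, limma FDR 0.241). The study lists ccr1 among the genes it called in these same libraries, so its difference is not independent evidence.

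The last reduction, from aldehyde to monolignol, is carried out by cinnamyl alcohol dehydrogenase, the product of bm1. FPKM of bm1 was 48.9 and 41.5 in the FI libraries, against 103 and 94.3 in the TI libraries. Here too the tissues did not overlap. The FI and TI means were 45.2 ± 5.26 and 98.7 ± 6.24 (SD, n = 2), a ratio of 2.18-fold, and the log2FC was −1.11 (SE 0.22, limma FDR 0.232).

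The remaining brown midrib gene, bm2, does not encode an enzyme of the monolignol route itself. FPKM of bm2 was 100 and 115 in the FI libraries, and TI replicates 1 and 2 had 57.2 and 97.7. TI replicate 2 lay only 2.58 FPKM below the lower FI library, and the counting intervals of these 2 values overlapped (92.2 to 103 and 95.9 to 105; exact Poisson, 95%). The means were 108 ± 10.5 in FI and 77.4 ± 28.6 in TI (SD, n = 2), with a log2FC of 0.52 (SE 0.33, limma FDR 0.409). The difference rests on TI replicate 1, since the log2FC was 0.14 without it and 0.90 without TI replicate 2.

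Of the 7 genes, 0 passed both thresholds (FDR below 0.05, log2FC beyond 1 in either direction) in limma, as did 0 of all 19531 genes (0.0%), where the lowest FDR was 0.209. Before adjustment, limma gave 5 of the 7 a p under 0.05 in the direction of TI (bm3, bm1, ccr1, 4CL and ccoaomt1), where 9.25% of all genes did so. In the direction of FI it was 0 of 7, against 8.80% of all genes. Since 2 libraries per tissue limit an exact two-sided permutation test to a p of 0.333 or more, that test was not used, and each gene's p comes from a fit across all genes. The p-values set the difference between the tissues against the spread between the 2 libraries of a tissue, which may in part be technical. The median log2FC of the 7 genes was −0.82, beside 0.06 for all genes tested.

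**Figure D2:**
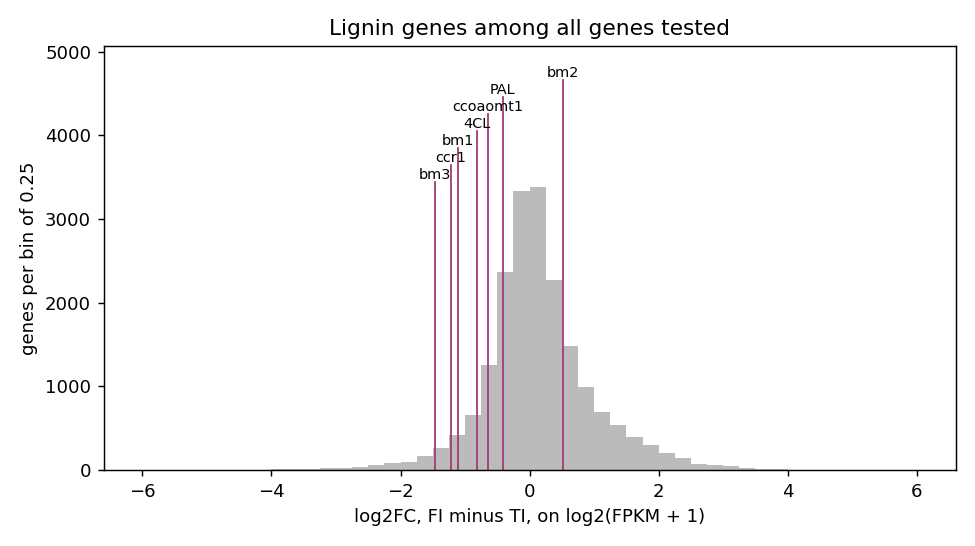
Histogram of the log2FC (FI minus TI, on log2(FPKM + 1)) of all 19531 genes tested, in bins of 0.25, with a vertical line at each of the 7 lignin genes. A share of 2.99% of genes lies further towards TI than bm3, 4.45% further than ccr1 and 19.4% further than PAL, while bm2 lies on the FI side.

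Whole fragments could be recovered from the FPKM values, and they give the depth behind each gene. The smallest numbers were those of ccr1, with 148 and 98 fragments in the FI libraries, against 267 and 165 in the TI libraries, and bm3 had 1213 and 896 in the FI libraries, against 2462 and 1787 in the TI libraries. Tested as fragments in edgeR (quasi-likelihood), bm3 had a log2FC of −1.51 (SE 0.21, FDR 0.242), ccr1 of −1.30 (SE 0.27, FDR 0.245) and bm1 of −1.17 (SE 0.19, FDR 0.242). PAL, 4CL, ccoaomt1 and bm2 had FDR of 0.310, 0.245, 0.248 and 0.423 by the same test, and 0 of 18026 genes (0.0%) passed both thresholds. Before adjustment 5 of the 7 genes had a p under 0.05 on fragments, all towards TI, as did 11.2% of all genes.

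Other tests of the same fragments called some of these genes. By edgeR's exact test, bm3 (FDR = 0.00082), bm1 (FDR = 0.010) and ccr1 (FDR = 0.020) passed both thresholds, as did 3.79% of all genes in the direction of TI. DESeq2 called bm3 (FDR = 3.78e-06) and bm1 (FDR = 0.0026), and 2.25% of all genes in that direction. Neither called PAL, 4CL, ccoaomt1 or bm2. Without TI replicate 2, limma called bm3 (FDR = 0.018), ccr1 (FDR = 0.030) and bm1 (FDR = 0.034) on FPKM, where 7.79% of all genes were called towards TI and 16.9% towards FI. The same library left out gave calls of bm3, bm1, ccr1 and 4CL on fragments by edgeR (9.47% of all genes towards TI), and TI replicate 1 left out gave a call of bm3 (1.36%). In these fits the lone TI library is assumed to vary like FI. The calls depended on the test and on the libraries used. The direction of all 7 genes was the same in each fit on FPKM and on fragments, libraries left out included. All these fits use the same 4 libraries. The tissues did not overlap on FPKM in any of the 7 genes, so leaving out 1 library could not reverse a direction there. The constant direction is therefore not further evidence.

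**Figure D3:**
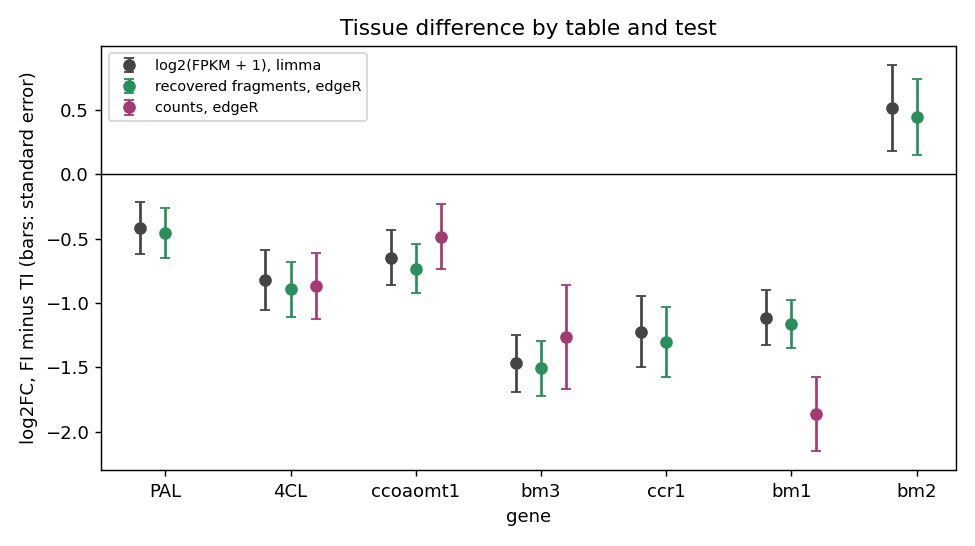
The log2FC (FI minus TI) of each gene with its standard error, on log2(FPKM + 1) by limma, and on recovered fragments and on counts by edgeR's quasi-likelihood test. Points below 0 are higher in TI; only bm2 lies above 0, and the count value of bm1, −1.86, lies furthest from 0. PAL, ccr1 and bm2 have no count value.

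The order of levels changed between the tissues. FPKM counts fragments per kilobase, so levels of different genes are compared on that scale only, and the length used for each gene is not given in the table. In FI the means ran from PAL (168) and bm3 (157) to bm2 (108), bm1 (45.2), ccr1 (18.3), 4CL (16.8) and ccoaomt1 (9.67). The means of PAL and bm3, and likewise of ccr1 and 4CL, did not differ beyond their SD in FI. Within each FI library, though, PAL lay above bm3 and ccr1 above 4CL. In TI bm3 (435) was highest, followed by PAL (224), bm1 (98.7), bm2 (77.4), ccr1 (44.0), 4CL (30.3) and ccoaomt1 (15.7), and bm1 and bm2 did not differ beyond the SD of bm2. In TI replicate 2 this pair stood in the reverse order, with bm2 at 97.7 and bm1 at 94.3.

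Some ratios of genes within a library differed between the tissues. The FPKM of bm3 was 0.978 and 0.886 times that of PAL in FI and 2.00 and 1.88 times in TI. Against the other O-methyltransferase, ccoaomt1, it was 16.2 and 16.2 times in FI and 28.4 and 27.1 times in TI. The pair of reductive enzymes kept closer to each other, with bm1 at 2.32 and 2.66 times ccr1 in FI and 2.07 and 2.48 times in TI. Between ccr1 and 4CL the FI libraries had ratios of 1.12 and 1.05 and the TI libraries 1.53 and 1.36. The FPKM of bm3 was 1.71 and 1.23 times that of bm2 in FI and 8.01 and 4.2 times in TI. The tissues did not overlap in the ratios of bm3 and of ccr1 to 4CL, and they overlapped in that of bm1 to ccr1. Only these chosen pairs were compared, and the share of other gene pairs that do not overlap was not counted. The ratios restate the levels given above.

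The libraries of one tissue also differed from each other. In all 6 genes that were higher in TI, FI replicate 1 lay above FI replicate 2, from 1.10-fold in PAL (95% exact counting interval 1.04 to 1.16) to 1.35-fold in ccr1 (1.04 to 1.76), and bm2 was lower in FI replicate 1 (0.871-fold, 0.818 to 0.927). Likewise TI replicate 1 lay above TI replicate 2 in the 6 genes, from 1.05-fold in PAL (0.990 to 1.11) to 1.31-fold in ccr1 (1.08 to 1.60). The interval reached 1 in PAL, ccoaomt1 and bm1. In bm2, TI replicate 1 was 0.586 times TI replicate 2 (0.536 to 0.640). These intervals cover counting error only and compare libraries, not tissues.

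TI replicate 2 came close to TI replicate 1 for most of these genes. Setting the FI mean at 0 and TI replicate 1 at 100%, TI replicate 2 lay at 84.8% for bm1, 84.6% for ccoaomt1, 84.2% for bm3, 82.5% for PAL, 71.1% for 4CL, 62.5% for ccr1 and 19.8% for bm2. Against the FI mean, bm3 was 2.92-fold higher in TI replicate 1 and 2.62-fold higher in TI replicate 2. The gap between the internode libraries in log2(FPKM + 1) was 0.07 to 0.38 in the 6 genes, with a median of 0.20 (quartiles 0.08 and 0.43) over the 2834 genes that were higher in both TI libraries and had a mean FPKM of 10 or more. In bm2 the gap was −0.76. In all 7 genes TI replicate 2, the internode library with the higher floral marker level, lay nearer to FI. The share of all genes that did so was not counted, and the part of floral RNA in this pattern was not tested.

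**Figure D4:**
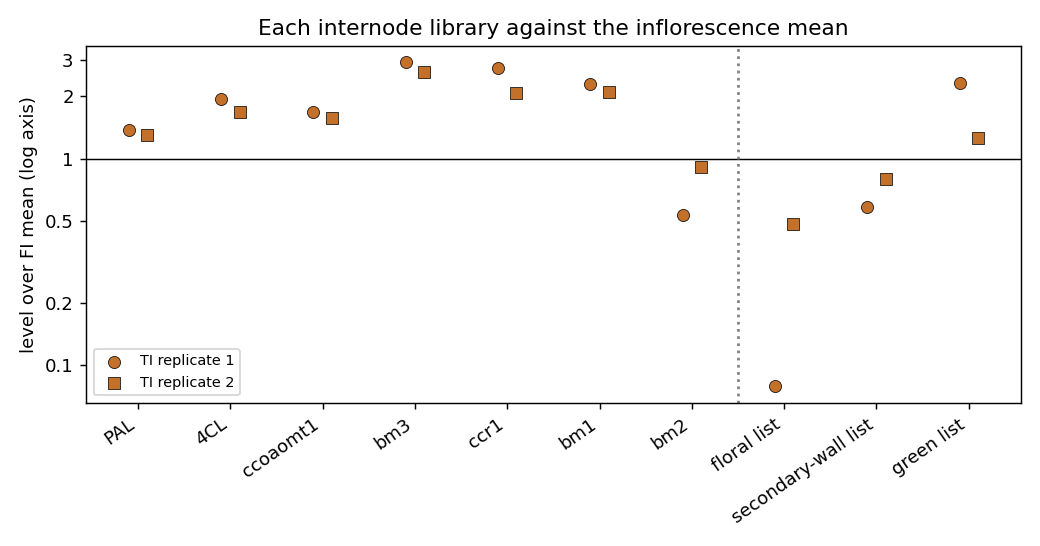
Level in each TI library over the FI mean, on a log axis, for the 7 lignin genes (FPKM) and, right of the dotted line, for the summed CPM of 3 marker lists. The lignin genes other than bm2 lie above 1 in both libraries, the floral list lies at 7.92% of the FI mean in TI replicate 1 and 48.5% in TI replicate 2, and the secondary-wall list at 58.1% and 79.7%.

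The summed level of the genes fixed as secondary-wall markers was lower in both TI libraries, and this sum rests mostly on cesa10. Of the secondary-wall genes fixed for this purpose, 3 had counts in the table, namely the cellulose synthase genes cesa10 and cesa12 and brittle stalk2 (bk2). Their sum was 57.6 and 57.9 CPM in FI, and 33.6 and 46.0 in TI replicates 1 and 2. Most of it was cesa10, with 127 and 106 counts in the FI libraries, against 44 and 60 in the TI libraries, and cesa12 had 0 counts in TI replicate 1, while bk2, with 11 and 9 counts in FI, had 17 and 6 in TI. The 9 gene models matched as green tissue markers summed to 438 and 320 CPM in the FI libraries, against 877 and 479 in the TI libraries. Within these sums ssu1 alone had 107 and 54.5 CPM in FI, and 434 and 137 in TI replicates 1 and 2. In both TI libraries 5 of the 9 were higher, against 26.5% of all gene models tested. The other way, with both FI libraries higher, were 2 of the 9, against 30.0% of all gene models tested. These were a model named pep1 (18 and 24 counts in FI, 1 and 3 in TI) and a model named pdk1 (71.2 and 61.8 CPM in FI, 36.3 and 54.3 in TI). A second model named pep1 was higher in TI (9 and 2 counts in FI, 46 and 12 in TI). The part of either list in the levels of the lignin genes was not tested.

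In the count table, which uses an earlier set of gene names, 5 of the 7 genes were paired with a gene model through the names in RefSeq's gene table, and 4 had enough counts for edgeR. For bm3 the pairing rests on the name of its product. The gene model of bm1 (GRMZM5G844562) had 54 and 49 counts in the FI libraries, against 162 and 104 in the TI libraries. Recovered fragments of bm1 were far more, 546 and 414 in the FI libraries, against 876 and 649 in the TI libraries. On counts the log2FC was −1.86 (SE 0.29, edgeR FDR 0.201), further from 0 than on FPKM. What the shortfall in counts does to this value and to the calls below was not tested. Transcripts T01 and T02 of this model were both higher in TI. T01 had 30 and 23 counts in the FI libraries, against 85 and 44 in the TI libraries. T02 had 22 and 26 counts in the FI libraries, against 77 and 60 in the TI libraries. Counts of bm1 passed both thresholds by edgeR's exact test (FDR = 0.00099), by DESeq2 (FDR = 0.0051) and in edgeR without a filter on low counts (FDR = 0.020), as did 3.42%, 1.96% and 1.53% of all gene models in the direction of TI. Without TI replicate 2, bm1 and bm3 were called on counts by edgeR, with 7.53% of all models called towards TI.

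The model taken for bm3 (GRMZM5G814904) had 199 and 106 counts in the FI libraries, against 350 and 168 in the TI libraries, far fewer than its recovered fragments, and a log2FC of −1.26 (SE 0.40, edgeR FDR 0.272), which was −0.78 without TI replicate 1. On CPM its FI libraries had 81.8 and 51.2 and its TI libraries 193 and 115. Counts of 4CL (GRMZM2G075333) were 216 and 142 in FI libraries, 270 and 189 in TI libraries, and gave a log2FC of −0.87 (SE 0.26, edgeR FDR 0.264). For ccoaomt1 (GRMZM2G127948) it was −0.48 (SE 0.25, edgeR FDR 0.385), with −0.76 without FI replicate 1 and −0.25 without FI replicate 2, and the CPM values of 103 and 75.8 in the FI libraries, against 119 and 123 in the TI libraries, did not overlap. Only 4 and 4 counts in the FI libraries and 9 and 0 in the TI libraries were assigned to ccr1 (GRMZM2G131205), all to a single transcript, too few for the test. In edgeR's quasi-likelihood test 0 of the 4 genes tested on counts passed both thresholds, like 0 of 15479 gene models (0.0%). Before adjustment bm1, bm3 and 4CL had a p under 0.05, all towards TI, against 9.67% of all models.

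Other genes of the pathway were taken from RefSeq's gene table by symbol, which gave 14 genes. Of these 11 had counts, in 12 gene models, and 5 models had enough for a test. In edgeR's quasi-likelihood test 0 of these 5 passed both thresholds, and before adjustment 1 had a p under 0.05, towards TI. Over all gene models these shares were 0.0% and 9.67%, so 1 of 5 says little. Their median log2FC was −0.60, beside 0.00 for all gene models. Counts of this list are raw, and the TI libraries had lower count totals (1817889 and 1455729) than the FI libraries (2431447 and 2072230), which the log2FC allows for. At the entry step, PAL1 (GRMZM2G074604) had 133 and 111 counts in the FI libraries, against 120 and 103 in the TI libraries. After scaling for the totals it was higher in TI, with a log2FC of −0.39 (SE 0.23, edgeR FDR 0.432). Whether this model is the PAL gene of the FPKM table could not be told from the names.

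The highest counts of this list were those of a gene that RefSeq lists as Bm6 (GRMZM2G062420), another brown midrib locus name. It had 316 and 304 counts in FI, then 736 and 336 in TI replicates 1 and 2, a log2FC of −1.27 (SE 0.34, edgeR FDR 0.25), and of −0.74 without TI replicate 1. The same name is given to GRMZM2G106376, which had 2 and 11 counts in the FI libraries, against 5 and 9 in the TI libraries, and a log2FC of −0.60 (SE 0.97, edgeR FDR 0.766). Its direction depended on 1 library, since it was 0.06 without TI replicate 2, and leaving out TI replicate 1 gave −1.05. CCOAOMT2 (GRMZM2G099363), a second caffeoyl-CoA O-methyltransferase, had 25 and 14 counts in the FI libraries, against 30 and 20 in the TI libraries, giving a log2FC of −0.87 (SE 0.45, edgeR FDR 0.379).

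Low counts limited the rest of the pathway list. The laccases, which oxidise monolignols in the wall, had 21 counts or fewer in each library. The most abundant of them, lac2 (GRMZM2G146152), had 12 and 21 in the FI libraries, against 9 and 1 in the TI libraries. The gene named cad1 was at 0 counts in 3 libraries and at 1 in TI replicate 2, and ccr2 had 3 counts or fewer in each library. Both thus lay at or below 3 counts, the floor set here. For ccr1 only 4 and 4 counts were assigned in the FI libraries, where 148 and 98 fragments were recovered from FPKM. Low counts in this list therefore need not mean low levels, and these genes were not read on FPKM. Of the MYB genes known in maize as repressors of the pathway, myb31 (GRMZM2G050305) had 26 and 17 counts in the FI libraries, against 14 and 1 in the TI libraries, for a log2FC of 1.04 (SE 0.92, edgeR FDR 0.572), and leaving out TI replicate 1 gave 3.68, leaving out TI replicate 2 only 0.26. The other, myb42, had 3 and 2 in the FI libraries, against 19 and 2 in the TI libraries.

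For the 4 genes tested on counts, the gene models with a name and a mean of at least 10 CPM (3471 models) were ordered by the distance of their log2(CPM + 1) profile over the 4 libraries. Nearest to bm3 were csu598 (distance 0.0658) and pk4 (0.0817), and nearest to bm1 were bHLH137 (0.0764) and si614028h05a (0.0877). For 4CL they were umc1117 (0.0652) and cl9362_1 (0.0775), and for ccoaomt1 CM2 (0.0666) and cl15737_-2 (0.0753). Over only 4 libraries such likeness is a description of these values.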

How the data were processed

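Reads were trimmed (Trimmomatic) and mapped (TopHat2 2.0.13) per the labels, and the authors deposited raw counts of version 3 transcripts. The builds named are B73 RefGen_v3 per the labels and B73 RefGen_v4 per the methods, and the counting tool is not given in the sources used here. FPKM per gene, which the authors computed in CLC Genomics Workbench, was deposited under version 4 identifiers. The authors' own fold changes, p-values and FDR (6 columns) were not used. Columns named floral stem were taken as FI, since the series has only 2 tissues.

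For limma 3.58.1, FPKM was taken as log2(FPKM + 1), which understates changes of low genes, and genes with means below 1 were left out. Fragments were recovered from FPKM as whole multiples (tolerance 0.001 of a fragment) in all 24149 genes above 0 in at least 2 libraries, and a gene's recovered numbers can be a common fraction of the true ones. They, and counts summed per gene model, entered edgeR 4.0.16 (quasi-likelihood) after filterByExpr (minimum count 10) and TMM, with DESeq2 1.42.0 and the exact test as alternatives, in R 4.3.3. All FDR are Benjamini-Hochberg over all genes tested, except those of DESeq2. These are the adjusted p-values that DESeq2 gives, and they leave out some of the genes tested. Standard errors on counts were derived from the F statistic. On simulated fragments, the quasi-likelihood test called 200 of 200 genes changed by a log2FC of 4. It also called 13 unchanged ones among 17582 genes in all, and limma called 200 and 8 among 18025. The lignin gene with the largest change on the real fragments, bm3, had a log2FC of −1.51. Changes smaller than 4 were not simulated, so how often changes of the size seen in the lignin genes are called was not tested.

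The 7 genes were given by identifier. Of the pathway list, the 3 most abundant genes of each step were to be named by FPKM, and the nearest genes were to be sought on FPKM, but RefSeq's table (Zm-B73-REFERENCE-NAM-5.0) names version 3 models only, so both were read on counts, and all genes of the list that were tested are named. Marker genes were matched by symbol, and a symbol such as pdk1 matched more than 1 gene. The 7 genes and the lists were chosen with earlier results of these data known. Sequences and coordinates were not used here.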

Additional observations from a re-analysis of the deposited data

How the results depend on the processing

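The gap between the 2 libraries of a tissue had a median over all genes of 0.37 in TI and 0.23 in FI in log2(FPKM + 1). Genes called numbered 0 on each table in the fits described, but on counts 323 by DESeq2, 477 without a filter and 719 by the exact test, and on fragments 439, 8 and 896 under the same settings. With 1 library left out in turn, calls ranged from 0 to 4832 on FPKM, from 0 to 3431 on counts and from 0 to 4910 on fragments, and from 0 to 1 in the pathway list, each time highest without TI replicate 2. The lone TI library is then assumed to vary like FI, so these are not firmer calls. Without TI replicate 1 counts gave 170 calls and fragments 269.

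The 7 genes kept their direction in all fits on FPKM and on fragments, and bm1, bm3, 4CL and ccoaomt1 in all fits on counts. As the fits share the same libraries and the tissues did not overlap in these genes on FPKM, this adds no evidence. PAL and bm2 were not run on counts, and ccr1 only without a filter. Beyond the fits described, bm1 passed the thresholds on counts without a filter (−1.82), by DESeq2 (−1.82) and by the exact test (−1.86), and on fragments by DESeq2 (−1.15) and the exact test (−1.17). On fragments bm3 passed by DESeq2 (−1.49) and the exact test (−1.51), and ccr1 by the exact test (−1.30). With libraries left out in turn, the log2FC on FPKM lay between −1.23 and −0.997 for bm1, −1.60 and −1.33 for bm3 and −1.43 and −1.02 for ccr1. On counts it lay between −2.00 and −1.63 for bm1, −1.69 and −0.78 for bm3, −1.11 and −0.67 for 4CL and −0.76 and −0.25 for ccoaomt1. On fragments it lay between −1.12 and −0.73 for 4CL, −1.33 and −1.05 for bm1, −1.70 and −1.38 for bm3 and −1.58 and −1.07 for ccr1. Calls were reached without TI replicate 2 in 9 of these cases, all but 4CL and ccoaomt1 on counts, and, for bm3 on fragments, without TI replicate 1. The FDR of bm3 on FPKM ranged from 0.137 to 0.301 over the settings that kept all libraries. On FPKM, a pseudocount of 0.1, no filter, a mean of at least 5, quantile normalization and other fold thresholds changed no call among the 7 genes, nor did RLE normalization on counts or fragments. Quantile normalization moved the median log2FC of all genes from 0.06 to −0.05. The pathway list was not run on FPKM.

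The labels do not say what replicate numbers mark. Same-numbered libraries deviated together with a correlation of 0.174 on FPKM over genes, from only 2 pairs. With the replicate number as a block, 0 genes were called on each table, and bm3 had a log2FC of −1.47 on FPKM.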

Other observations

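In TI replicate 2, the library with the lowest count total (1455729), ccr1 had 0 counts in the count table, while its FPKM there was 38.0, from 165 recovered fragments, and lay above both FI libraries. The count table and the FPKM table thus differ for this gene, which was singled out after its values were seen.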
